A study of Drosophila melanogaster with 2 samples.

Results

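Among 7329 binding peaks of the Drosophila transcription factor Fer1, 242 (3.30%) had their summit within 1000 bp of the start of a non-coding gene and more than 1000 bp from every protein-coding start. The summit is the position of highest signal within a peak, as the authors' files give it. Gene starts were those of every transcript on 2L, 2R, 3L, 3R, 4 and X in the Ensembl BDGP6 annotation of the dm6 genome build. Transposable elements and genes on other sequences of the build were left out. Distances are to the nearest annotated start, which in some genes is not the outermost one and for some microRNAs is the start of the mature RNA. Of the other peaks, 4314 (58.9%) had a summit within 1000 bp of a protein-coding start and 2773 (37.8%) lay farther than that from every start. No measured binding value entered the choice of the 242 summits beyond the authors' threshold for the list itself.

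The data came from chromatin immunoprecipitation and sequencing of whole embryos aged 6 to 24 h, of pooled sex, from a transgenic line of strain Fer1-GFP. These flies stably express Fer1 with eGFP fused to its C terminus, and chromatin sheared to 200 to 800 bp was precipitated with an antibody against GFP. There was 1 group with 2 biological replicates and no second condition. The labels do not say whether the untagged gene was still present, and no cell type was isolated, so a peak in few cells cannot be told apart from weak binding in many.

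Fer1 is a basic helix-loop-helix protein related to mammalian Ptf1a. Proteins of this family bind as dimers to the E-box, a short DNA element with the consensus CANNTG. Fly non-coding genes are of several kinds. Long non-coding RNAs (lncRNAs) and antisense RNAs are transcribed by RNA polymerase II, as are the primary transcripts of most microRNAs, whereas tRNAs, U6 and 7SK are made by RNA polymerase III. Many snoRNAs and microRNAs are cut out of introns of longer transcripts, so that the annotated start of such an RNA is not where transcription begins.

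The summit base with 50 bases to each side, for 6 of the 7 members with the highest signal, is shown first, since these are the sites where Fer1 signal at non-coding starts was highest. They are read from the RefSeq copy of the Release 6 genome (dm6), and capitals mark each match to CANNTG. 
lncRNA:CR44619, chrX:12751260-12751360, plus strand: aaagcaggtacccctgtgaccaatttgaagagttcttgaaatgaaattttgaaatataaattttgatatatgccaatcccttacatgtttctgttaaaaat
lncRNA:CR46036, chr3R:17700537-17700637, plus strand: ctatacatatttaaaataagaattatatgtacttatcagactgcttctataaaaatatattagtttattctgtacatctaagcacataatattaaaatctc
lncRNA:CR31840, chr2L:14024029-14024129, plus strand: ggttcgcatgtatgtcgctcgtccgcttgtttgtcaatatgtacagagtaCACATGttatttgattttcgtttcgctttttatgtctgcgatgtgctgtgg
lncRNA:CR31044, chr3R:29214393-29214493, plus strand: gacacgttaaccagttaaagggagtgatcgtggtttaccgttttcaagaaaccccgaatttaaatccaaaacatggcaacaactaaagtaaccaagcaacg
lncRNA:CR45643, chr3R:16222442-16222542, plus strand: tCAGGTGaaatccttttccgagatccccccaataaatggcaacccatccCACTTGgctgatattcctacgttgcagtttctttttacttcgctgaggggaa
lncRNA:CR44619, chrX:12752308-12752408, plus strand: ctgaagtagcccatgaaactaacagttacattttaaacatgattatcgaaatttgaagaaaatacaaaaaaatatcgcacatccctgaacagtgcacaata
An E-box was present at CR31840 and at CR45643, that is at 2 of the 7 highest members, since the one not printed, at CR44339, held none. The share over all 7329 peaks was 37.8%.

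A second set shows the highest member of 4 other RNA classes, antisense RNAs, snRNAs, snoRNAs and microRNAs, for comparison with the lncRNA summits. Capitals again mark CANNTG. 
asRNA:CR45804, chr3L:9693030-9693130, plus strand: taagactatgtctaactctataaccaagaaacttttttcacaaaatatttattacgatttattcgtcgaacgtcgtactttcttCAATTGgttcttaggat
snRNA:U6:96Ac, chr3R:24557075-24557175, plus strand: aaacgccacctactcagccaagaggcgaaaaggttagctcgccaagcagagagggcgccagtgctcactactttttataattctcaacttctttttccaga
snoRNA:Me18S-G1358a, chr3R:9353402-9353502, plus strand: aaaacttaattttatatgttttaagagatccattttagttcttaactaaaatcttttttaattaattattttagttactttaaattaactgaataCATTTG
mir-4962, chrX:3777362-3777462, plus strand: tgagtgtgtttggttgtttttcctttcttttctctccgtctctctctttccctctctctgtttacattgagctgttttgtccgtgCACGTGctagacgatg
The window at U6:96Ac, a gene of the catalytic spliceosomal U6 RNA, held no E-box, and each of the others held 1. Windows were read for 1 member of each of 7 classes in all, 4 of which held an E-box. Each was the highest of its class except for tRNA genes, where tRNA:Thr-AGT-1-1 was read, with a pooled signal of 190.8. The highest tRNA member had 438.5 pooled. The windows at the pseudogene CR31032 and at sncRNA:128 held no E-box. These few windows describe single sites and not their classes.

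Long non-coding RNAs were the nearest non-coding gene for 167 of the 242 summits, or 69.0% (95% exact binomial interval 62.8 to 74.8). These summits were spread over 145 genes. Of the 3738 annotated non-coding genes 1951 were lncRNAs, as were 1243 of the 2044 with no coding start within 2 kb. A summit of the list lay within 1000 bp of 14.4% of lncRNA genes, against 16.6% of all non-coding genes. The share of 69.0% is therefore not a measure of preference for lncRNAs. A further 28 summits were nearest to tRNA genes, 14 to antisense RNAs, 13 to microRNAs, 9 to snoRNAs, 6 to snRNAs, 3 to other small RNAs and 2 to pseudogenes. None of the 99 rRNA genes annotated on 2L, 2R, 3L, 3R, 4 and X had a summit within 1000 bp. How well reads map at these genes was not checked. The authors' signal value, a score of the peak caller against a control, had a median of 190.1 over the 242 summits (95% interval of the median 177.3 to 205.5) and ranged from 110.3 to 2818. Over all 7329 peaks the median was 182.1, and at protein-coding starts it was 184.9. Among the classes the median signal was 203.5 at lncRNA starts, 304.5 at antisense RNAs, 228.9 at microRNAs, 169.1 at snoRNAs, 168.1 at snRNAs and 148.2 at tRNA genes. All classes overlapped one another in range, and no class difference was tested, since peaks are not replicates of a condition.

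**Figure D1:**
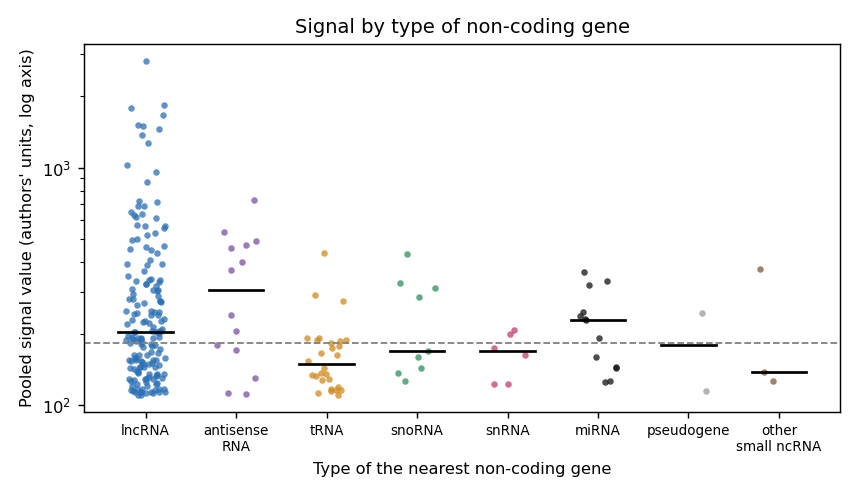
Pooled signal value (authors' units, log axis) of each of the 242 summits, by the type of the nearest non-coding gene. Black bars are medians and the dashed line is the median of all 7329 peaks, 182.1. The highest values, up to 2818, are at lncRNA genes.

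At the top of the list, 12 of the 242 summits (4.96%) were among the 300 peaks with the highest signal, against 4.09% for all peaks by construction. The 25 highest members had pooled signals of 564.8 to 2818 and pooled ranks of 6 to 545. Of these, 24 were nearest to an lncRNA and 1 to an antisense RNA. With respect to protein-coding genes, 16 were intergenic and 9 lay in introns. Only 6 of the 25 were within 200 bp of the non-coding start. Through the ranked pooled list, the share of summits at non-coding starts only was 4.40% in ranks 1 to 500, 3.06% in ranks 4001 to 7329, 3.70% in ranks 7330 to 15000 and 4.12% in ranks 15001 to 30000. Over the same ranks the share at protein-coding starts went from 71.0% in the first 500 to 31.99% in the last 15000.

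The highest member of all, at chrX:12750648-12751865, lay 557 bp before the start of lncRNA:CR44619 and inside an exon of the neighbouring lncRNA:Vinr. Its signal was 1634 in replicate 1 and 1095 in replicate 2, and 2818 in the pooled list. It ranked 6 in each of these 3 lists. A second member, 491 bp inside CR44619, had a signal of 863.5 in replicate 1 and 586.3 in replicate 2, and a pooled value of 1446 (rank 70). Another, 134 bp inside Vinr, was weak, with a pooled signal of 128.8. The nearest protein-coding start, that of CG4004, was 4993 bp from the highest summit. Further into CR44619 and beyond it, at 3230 and 3993 bp from the highest summit, lay peaks of 469.4 and 335.5 that were too far from any start to be members. The highest and the second member stood well above the other peaks of this stretch in both replicates.

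Introns of protein-coding genes held the next group. The second highest member lay 154 bp before lncRNA:CR46036, within an intron of osa, which encodes a subunit of the Brahma chromatin-remodelling complex. Its signal was 1056 in replicate 1, 785.9 in replicate 2 and 1826 pooled. A second summit in the same gene, 705 bp inside lncRNA:CR46035, had 624.9 in replicate 1, 404.2 in replicate 2 and 1020 pooled. The nearest protein-coding starts were 13516 bp away, that of CG31249, and 13950 bp away, that of osa. No start of osa was therefore closer than these distances. An intron of CHES-1-like, a forkhead-type factor, held the summit 806 bp before lncRNA:CR43287, with a pooled signal of 1265. At Dif, an NF-kappaB-type factor of immune signalling, the summit 483 bp past the start of lncRNA:CR44409 had a pooled signal of 871.8. An intron of ChAT, choline acetyltransferase, held the summit near lncRNA:CR46265, with a pooled signal of 714.1.

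Intergenic lncRNAs made up most of the remaining high members. The next highest summit lay 20 bp inside lncRNA:CR31840, with a signal of 1194 in replicate 1, 707.0 in replicate 2 and 1787 pooled. A lower summit, of 306.3, lay 179 bp upstream of the same gene, and one more, of 688.7, lay 305 bp before the adjacent lncRNA:CR45352. The summit 153 bp before lncRNA:CR44339, 4220 bp from Psc, had 994.3 in replicate 1, 681.0 in replicate 2 and 1660 pooled. Psc is a Polycomb-group gene. The summit 119 bp before lncRNA:CR31044, with 920.7 in replicate 1 and 582.3 in replicate 2, reached 1504 pooled. In each of these cases replicate 1 gave the higher number, but each list is on its own scale.

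At tara, which encodes a transcriptional co-regulator, 3 members surrounded the short lncRNA:CR45643 upstream of the gene. The summit 903 bp before the lncRNA had 921.0 in replicate 1 and 594.9 in replicate 2, with a pooled value of 1494. The one 912 bp past a second, later annotated start of the lncRNA had 820.9 and 570.1 in the replicates and 1375 pooled. Between them a weaker summit had a pooled value of 193.9. The closest of the 3 to tara lay 1139 bp upstream of its start, just outside the limit of 1000 bp, and a peak at the tara start itself had only 165.0.

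Among the other members in the top 25, the summit near lncRNA:CR45541 had a pooled signal of 956.0 and lay 1751 bp upstream of Hex-A, a hexokinase gene. That near lncRNA:CR44810, 4546 bp from slbo, had 719.7, and slbo encodes the fly C/EBP factor of border cell migration. The gene beat-Ib, of the beaten path family of axon guidance proteins, held 4 members around lncRNA:CR44867 and lncRNA:CR44868. They spanned 2020 bp and had signals from 138.9 to 618.6. The other 6 lncRNAs of the top 25, among them CR42794, CR45251 and CR44676, had pooled signals of 564.8 to 688.7. A protein-coding gene contained 86 of the 242 summits in all, in 74 genes, and 11 genes held 2 or more.

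Most non-coding genes had a single member. Of the 215 nearest genes, 193 had 1 member, 17 had 2 and 5 had 3. The 5 were CR45643, Hsromega, CR44868, CR44366 and CR43650, all lncRNAs. Linked at 5 kb, 157 summits stood alone and 85 fell into 35 clusters. Another peak of the list, member or not, lay within 5 kb of 184 summits (76.0%), against 71.2% for all peaks. Hsromega, a long heat-inducible nuclear RNA that organises omega speckles, had its highest member 184 bp inside the gene, at 365.5 in replicate 1, 264.2 in replicate 2 and 638.1 pooled. The other members there had 155.3 and 154.1, and a peak of 435.8, 1073 bp past a later annotated start of the gene, was just outside the limit.

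Of 67 well-studied non-coding genes looked up, 64 were matched by name, 19 had any summit of the list within 1000 bp and 13 had a member. Over all 3738 non-coding genes, 622 (16.6%) had a summit within 1000 bp and 262 had a member. Besides Hsromega, the lncRNAs were roX2 and flam. At roX2, an RNA of the dosage compensation complex on the male X chromosome, the summit lay 78 bp upstream with a pooled signal of 128.2 and rank 6020. It had 76.0 in replicate 1 and 50.7 in replicate 2. No summit of the list was near roX1. At flam, the source of piRNAs that silence transposons in ovarian somatic cells, the summit lay 193 bp upstream with a signal of 119.6 in replicate 1, 72.5 in replicate 2 and 190.7 pooled. The snoRNA host genes Uhg2, Uhg4, Uhg5 and Uhg8 had summits of 341.1, 815.6, 141.8 and 209.1, but each also had a protein-coding start within 1000 bp of its summit, so none is a member. The same held for RNaseP RNA, at 115.8, and mir-92a, at 739.7.

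Antisense RNAs had the highest class median and lay mostly downstream of the summits. The 14 summits had pooled signals of 111.7 to 728.1, and 12 of the 14 (85.7%) were upstream of the antisense start. The highest lay in an intron of Prps, encoding phosphoribosyl pyrophosphate synthetase, 741 bp before asRNA:CR45804. It had 427.1 in replicate 1, 303.5 in replicate 2 and 728.1 pooled. An antisense RNA starts within or beyond a coding gene on the other strand, and the nearest protein-coding start was 1377 bp from this summit. Of the 503 annotated antisense genes, 121 (24.1%) had a summit of the list within 1000 bp, against 622 of all 3738 non-coding genes (16.6%). Only 13 antisense genes had a member, against 262 of the 3738. The summits at the rest of the 121 were within 1000 bp of a protein-coding start.

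Summits at tRNA genes were low in signal but close to the genes. The 28 summits had pooled signals of 110.4 to 438.5 and were nearest to 26 tRNA genes. Of them, 19 (67.9%) lay within 200 bp of the start, against 49 of 167 (29.3%) at lncRNAs. Upstream of the tRNA lay 18 summits, 13 of these within 200 bp, while 2 were inside the gene and 8 past its end. In 19 cases 2 or more tRNA genes were within 1000 bp, so the nearest gene is only one of the candidates. The highest was the summit 181 bp upstream of tRNA:Arg-CCT-1-2, with 242.4 in replicate 1, 201.5 in replicate 2 and 438.5 pooled. The next were tRNA:Thr-AGT-1-2 at 291.6, tRNA:Phe-GAA-1-5 at 272.9, tRNA:Ser-TGA-2-1 at 192.2 and tRNA:Thr-AGT-1-1 at 190.8. On chromosome arm 2R lay 18 of the 28, an arm with 98 of the 290 annotated tRNA genes. By the overlapping peak with the nearest summit, tRNA:Val-CAC-1-1 had 29.6 in replicate 1 and 80.1 in replicate 2. This was the lowest ratio of replicate 1 to replicate 2 in the class. That replicate 1 peak ranked 17813, but a higher-ranked replicate 1 peak also overlapped this member. The values are therefore not a measure of unequal binding in the replicates. This gene is named here after its values were seen.

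**Figure D2:**
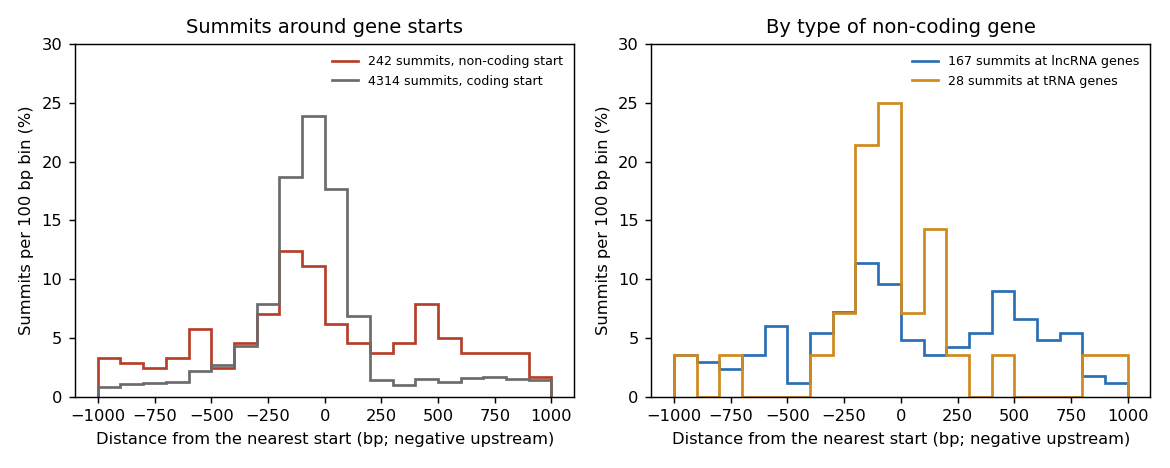
Distance of summits from the nearest start in bins of 100 bp (percent of summits per bin, negative upstream). On the left the 242 summits from non-coding starts and the 4314 summits from coding starts; on the right the lncRNA and tRNA members. The 2 tRNA bins just upstream of the start hold 13 of the 28 summits.

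Of the 6 summits at small nuclear RNA genes, most of which encode RNAs of the spliceosome, 5 lay within 200 bp of the start. At U6:96Ac the summit 90 bp upstream had 123.1 in replicate 1, 88.0 in replicate 2 and 206.5 pooled, and another 133 bp past the start had 173.4 pooled. The U5:63BC summit, 33 bp upstream, had 124.9 and 75.03 in the replicates and 199.9 pooled. At U1:95Ca the summit was 26 bp upstream with 162.8 pooled. U5:38ABb had a summit 930 bp past its start with 122.7. The polymerase III gene 7SKa, whose RNA holds the elongation factor P-TEFb inactive, had a summit 34 bp inside with 110.4 in replicate 1 and 23.5 in replicate 2. Its pooled value was 123.1, and a peak of 397.9 also lay within 1000 bp of it. RNaseMRP RNA, of the RNase that processes ribosomal RNA, had a summit 14 bp upstream, with 101.9 and 48.4 in the replicates and 137.6 pooled.

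Box C/D and H/ACA snoRNAs, many but not all of which guide methylation and pseudouridylation of ribosomal RNA, had 9 summits at 8 genes. Signals ranged from 125.7 to 431.6, the highest being in an intron of drn, 816 bp before snoRNA:Me18S-G1358a, with 239.7 in replicate 1 and 192.7 in replicate 2. The following ones were Or-ACA6 at 327.1 in an intron of egr, the fly TNF, snoRNA:185 at 310.7 and Or-CD4 at 285.9. Or-CD14 had summits of 169.1 and 143.5, and Psi18S-301, Psi28S-3342 and Or-ACA7 had 160.0, 136.1 and 125.7. Just 2 of the 9 lay within 200 bp of the snoRNA start. Of the other small RNAs, sncRNA:128 had a pooled signal of 372.1 and snoRNA:Or-ACA9 had 126.8. By its name Or-ACA9 is a snoRNA, but its annotated gene type is not, so it is not among the 9.

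MicroRNA genes were the nearest non-coding gene for 13 summits, with pooled signals of 125.0 to 363.1. Mature sequences of 5 of them, from dm6 coordinates in the annotation and the RefSeq copy of Release 6, are printed because the seed, bases 2 to 8 in capitals, sets the targets of a microRNA. 
mir-4962, chrX:3777408-3777431, plus strand: uUUCCCUCucucuguuuacauuga
mir-34, chr3R:10100952-10100975, plus strand: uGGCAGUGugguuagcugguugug
mir-ban, chr3L:642259-642281, plus strand: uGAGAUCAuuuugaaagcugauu
mir-277, chr3R:10100080-10100102, plus strand: uAAAUGCAcuaucugguacgaca
mir-92b, chr3R:25651457-25651478, plus strand: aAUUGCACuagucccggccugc
None of the printed seeds is shared between 2 of these microRNAs.

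Hairpins of 7 of the 13 lay in lncRNA genes and 7 in protein-coding genes, with mir-92b in both. The highest summit, at 363.1 pooled, lay in the hairpin of mir-4962, 4 bp past the start of a mature RNA and in an intron of Tlk, with 227.1 in replicate 1 and 136.3 in replicate 2. The next were mir-9377 in Tis11 at 334.1, mir-9378 at 319.2, mir-4912 at 245.4 and mir-308, in RpS23, at 236.7. At mir-34 and mir-277, hairpins in the same lncRNA gene CR43459, the summits had 228.9 and 144.9 pooled. They lay 7006 and 5794 bp from the start of that host transcript. A separate member, named after its values were seen, lay 39 bp inside the start of CR43459, with 128.4 in replicate 1, 65.6 in replicate 2 and 205.5 pooled. The bantam microRNA mir-ban, a growth regulator, had a summit 421 bp past the start of a mature RNA with 57.4 in replicate 1 and 130.7 in replicate 2. That peak ranked 9058 in replicate 1 and 1543 in replicate 2, so replicate 2 gave the higher value, unlike at most members. The summit at mir-14, whose hairpin but not the summit lies in CR43651, had 125.0, and that of mir-92b had 159.9.

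For 2 listed microRNAs the only member within 1000 bp was assigned to the host lncRNA instead, because its start was nearer. The summit 364 bp before a later annotated start of lncRNA:CR43626 had 286.0 in replicate 1, 233.1 in replicate 2 and 519.1 pooled, and lay 792 bp from mir-282. In CR43650 the highest summit, 302.2 pooled, lay 846 bp from mir-8, which acts in growth and neuronal survival. The other members of that gene had 164.9 and 138.2. Of the 2 members within 1000 bp of mir-14, the higher was likewise assigned to the host. It lay 60 bp before lncRNA:CR43651, with 265.0 in replicate 1, 225.2 in replicate 2 and 495.0 pooled.

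The distances to both kinds of start were used to choose the 242 summits, so their positions are given as a description. Of the 242 summits, 134 (55.4%) were upstream of the nearest non-coding start, against 64.1% at protein-coding starts. Within 200 bp were 83 (34.3%), against 67.2% of summits at protein-coding starts. The median absolute distance was 356.5 bp. Summits at coding starts were assigned by the nearest of 19607 starts and those at non-coding starts by 4358. The nearest protein-coding start was at a median of 3153 bp, 73 summits having one within 2 kb and 75 having none within 5 kb.

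With respect to protein-coding genes, 156 of the summits (64.5%) were intergenic and 81 (33.5%) intronic, with 3 in a 3' UTR, 1 in a 5' UTR and 1 in a coding exon. All peaks had 33.9% intergenic, 47.0% intronic and 16.3% in a 5' UTR. Since members must be over 1000 bp from coding starts, the low 5' UTR share is set by the rule. With respect to non-coding genes, 66 (27.3%) fell in an exon, 10 in an intron and 166 outside. By chromosome, 54 members were on 2L, 58 on 2R, 47 on 3L, 54 on 3R, 29 on X and none of the 34 peaks on the fourth. The X share of its 1309 peaks was 2.22% (interval 1.49 to 3.17), against 3.04% to 4.06% on the large autosomal arms. On X, 508 non-coding genes are annotated, against 743 to 851 on each of those arms.

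From the gene side, 622 of 3738 non-coding genes (16.6%) had a summit of the list within 1000 bp, against 33.1% of the 13945 protein-coding genes. A member was near 262 of them. Where a protein-coding start was itself within 1 kb, 32.5% of non-coding genes had a summit. At 1 to 2 kb the share was 14.8%, and with none within 2 kb it was 8.81% (180 of 2044, interval 7.61 to 10.1). Among lncRNAs the shares were 28.4%, 15.7% and 9.17%. For tRNA genes they were 35.4%, 43.2% and 19.2%, and for antisense RNAs 36.7%, 10.8% and 2.59%. In all classes shown the share was higher with a coding start within 1 kb than with none within 2 kb.

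**Figure D3:**
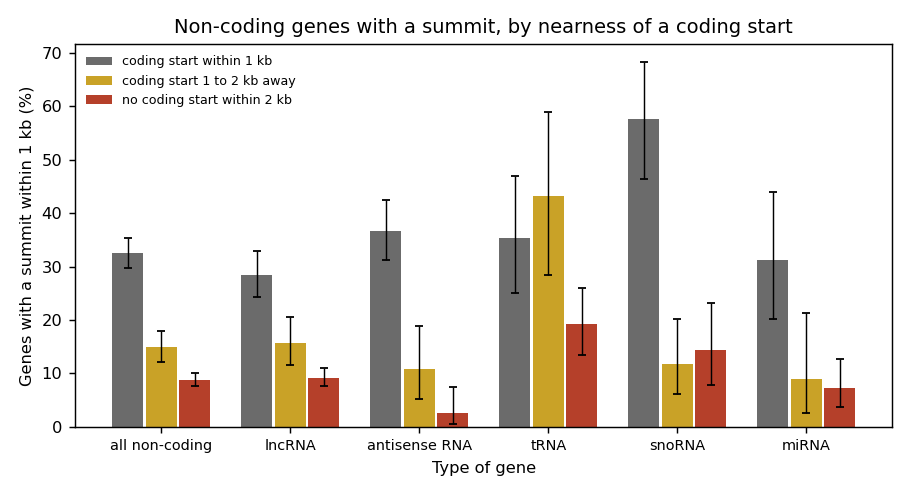
Percent of annotated non-coding genes with a summit of the list within 1 kb, by type of gene and by distance of the nearest coding start. Bars are shares and error bars are 95% exact binomial intervals. For all non-coding genes the bars are 32.5%, 14.8% and 8.81%.

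Replicates were compared by ranks, since the signal scales of the lists differ. Over 50% of both intervals, and within the 7329 highest peaks of each replicate, 137 of 242 members (56.6%, interval 50.1 to 62.9) matched in both replicates, against 54.1% of all peaks. With any overlap, 209 (86.4%) matched, against 81.1%. These lists are not independent of the thresholded list, which was made from both. By the rank of the overlapping peak with the nearest summit, 199 members were within the length of the list in both replicates. By this rank 13 fell past it in replicate 1 only, 23 in replicate 2 only and 7 in both. Some of these had another, higher-ranked overlapping peak, which is why 209 matched with any overlap. Median signals were 115.9 in replicate 1 (29.6 to 1634, 241 with a peak) and 79.8 in replicate 2 (12.2 to 1095). The Spearman correlation of the replicate signals across the 241 was 0.83, against 0.78 across 7292 of all peaks; both describe peaks of the same 2 libraries, not independent samples. The ratio of replicate 1 to replicate 2 had a median of 1.44 at members and 1.47 over all peaks. It reached 9.21 at the lowest member of all, lncRNA:CR45915, with 112.1 and 12.2, while lncRNA:CR44145 had no overlapping peak in replicate 1 (both named after their values were seen).

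**Figure D4:**
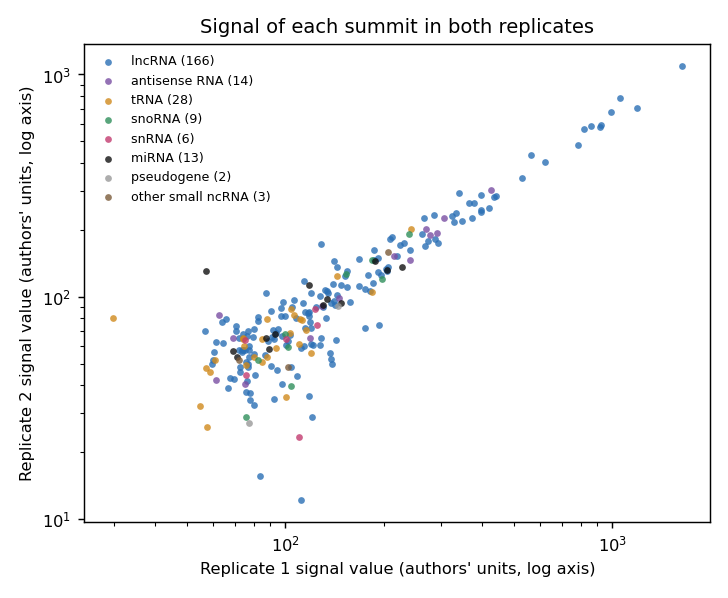
Signal value of each member in replicate 1 against replicate 2 (authors' units, log axes), coloured by the type of the nearest non-coding gene. The 241 members with a peak in both lists are shown. The highest point is lncRNA:CR44619 at 1634 and 1095.

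Within 50 bp of the summit, on either strand, an E-box with the letters CANNTG was present at 92 of 242 members (38.0%, interval 31.9 to 44.5), against 37.8% of all peaks. In windows of the same length 400 bp away the share was 41.1%. Summits at protein-coding starts had 37.6% and those over 1 kb from any start 38.2%. Single forms of the E-box were less alike. CAGCTG was at 3.72% of members (interval 1.71 to 6.94), against 7.16% and 4.22% of these groups. In the other direction, CAAGTG was at 7.02% of members (interval 4.15 to 11.0), against 5.45% and 5.34%. Both forms are named with their values known, and no difference was tested. The GAGA factor element GAGAG was at 17.4% of members (interval 12.8 to 22.7), against 13.5% and 11.6%. Its share 400 bp from the members was 15.9%. TATAAA was at 18.6%, 17.9% and 21.9% of the 3 groups in the same order. The element CGATA, the core of sites of BEAF-32 and DREF, was at 7.02% of members (interval 4.15 to 11.0) and 18.8% of summits at coding starts (interval 17.6 to 20.0). At summits far from any start it was at 11.3%. The longer DREF element TATCGATA, which contains CGATA, was at none of the 242 (upper bound 1.51%), 2.92% of coding-start summits and 0.22% of the distal ones. GGTCACACT, the Ohler 1 promoter element, was at none of the 242, 1.69% and 0.07%. The tRNA B-box core GGTTCGA was at 1 member (0.41%), against 0.72% of all peaks. Zelda's CAGGTA was at 9 members (3.72%, interval 1.71 to 6.94), against 1.95% and 1.84%, which the interval covers. Its share 400 bp from the members was 2.69%. Matches are counts of letters and not binding sites.

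**Figure D5:**
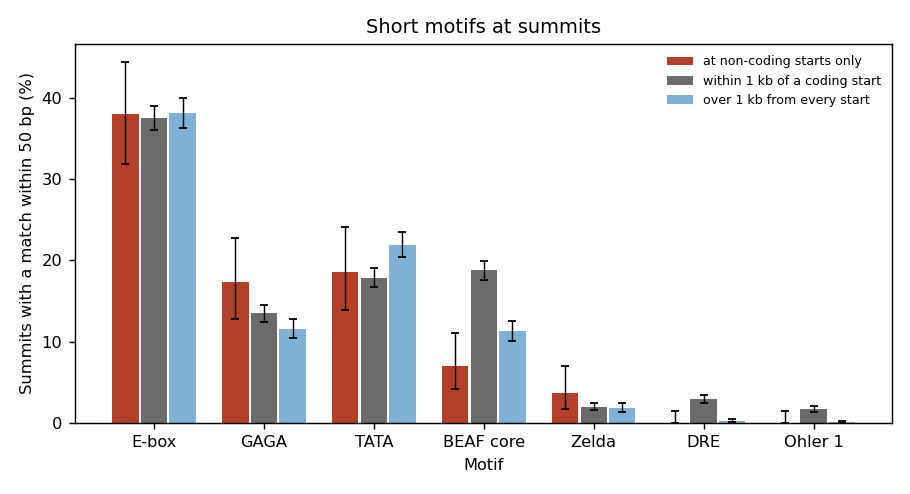
Percent of summits with a motif within 50 bp, for the 242 members, the 4314 summits at coding starts and the 2773 summits over 1 kb from any start. Error bars are 95% exact binomial intervals. E-box bars lie at 38.0%, 37.6% and 38.2%, and the BEAF core bars at 7.02%, 18.8% and 11.3%.

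Base composition and width were near those of the whole list. Mean G and C content was 36.3% at member summits and 42.4% at windows 400 bp away, against 36.9% and 43.0% over all peaks. The median width was 371.5 bp against 360 bp. Near the limits of the rule, the 12 members over 900 bp from a non-coding start had a median signal of 152.8, and the 19 peaks over 1000 and up to 1100 bp away that just failed had 195.3. On the other limit, the 11 members up to 1100 bp from a coding start had 178.5. The 7 summits over 900 and up to 1000 bp from a coding start, with a non-coding start near, had 315.4. The 382 summits within 1000 bp of both kinds of start had a median of 194.5.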

How the data were processed

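Per the labels, 2 biological replicates of 1 group were profiled, so no comparison between conditions, no test and no pairing of replicates was possible. The authors deposited peak lists with a signal value per peak, in the peak caller's units, and a −log10 q value. The −log10 q value was 4.29 for every peak of the thresholded list on dm6, so the signal was used for ranks. Each replicate list and the pooled list held 30000 peaks. Per the deposited descriptions of the files, each list was derived from alignments and a control, and the thresholded list from both replicate lists and the pooled list. Which software aligned reads and called peaks, which IDR cutoff applied and the read depth were not stated in those descriptions. Lists on dm3 and the control library were not analysed here.

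Starts on 2L, 2R, 3L, 3R, 4 and X were taken from Ensembl release 115. There were 4358 starts of 3738 non-coding genes and 19607 starts of 13945 protein-coding genes. Mature microRNAs were joined to their hairpin. A replicate's peak was the overlapping one with the nearest summit. Intervals are 95% exact binomial (Clopper-Pearson) intervals, or order-statistic intervals of a median, and cover counting error only. Motifs were searched on both strands within 50 bp of the summit and in windows 400 bp to each side. Calculations used Python 3.11.15, numpy 2.4.6, scipy 1.17.1 and pandas 2.3.3, and were tested on simulated data. No column of per-sample values was left unmapped.

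The summits, gene list and motifs were chosen with earlier results of these data known. Genes named are those nearest to the 25 highest members, the highest member of each class, the genes with most members, every member of a small RNA class with 10 or fewer members or otherwise its 5 highest, and genes of a list of 67 known non-coding genes. Of the 67, 3 were not matched by name. Host genes and neighbouring coding genes are given beside these. Alternatives were other windows around starts, other peak lists, leaving out each replicate, and other rules for matching.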

Additional observations from a re-analysis of the deposited data

How the results depend on the processing

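Of 40 alternatives over 7 results, 27 moved the value by less than its interval or, for counts, by less than 1.5 times. The 242 summits became 124 with a window of 200 bp and 130 in the upper 3664 peaks of the list, and 246 to 264 with a replicate left out. The share matched in both replicates, 56.6%, was 86.4% with 1 bp of overlap, 79.8% for summits within 100 bp, 68.6% against all replicate peaks and 34.7% against replicate lists of 3664 peaks. The lncRNA share, 69.0%, was 60.8% with a window of 500 bp and 67.8% to 67.9% with a replicate left out. The E-box share, 38.0%, was 19.8% within 25 bp and 61.2% within 100 bp, where all peaks had 20.0% and 61.5%, and 33.7% to 39.4% with a replicate left out. The share of non-coding genes with a summit, 16.6%, was 10.1% at 500 bp, 5.06% at 200 bp, 9.84% in the upper 3664 peaks and 8.81% for genes with no coding start within 2 kb, and 16.9% to 17.0% with a replicate left out. The members' median signal was 1.04 times that of all peaks, and 1.02 to 1.05 times with a replicate left out. The upstream share, 55.4%, was 53.8% to 56.5% in the same way. A replicate left out means the 7329 highest peaks of the other one: 217 of the 242 members overlapped a member of the list without replicate 1, and 224 one of the list without replicate 2. One alternative, leaving out mature microRNA starts, gave 239 members and was chosen after seeing the data. No paired analysis was possible because there is 1 group. Read depth is unknown, so no detection limit can be given.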
